A study of Mus musculus with 12 samples.

Results

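The genes described here make and control the chemical handling of drugs and other foreign compounds in the mouse small intestine: cytochromes P450 of families 2, 3 and 4, glutathione transferases, glucuronosyltransferases, sulfotransferases, carboxylesterases, epoxide hydrolases, an alcohol dehydrogenase, the cytochrome P450 reductase and the xenobiotic receptors PXR and CAR. A list of 35 named genes was taken, and a gene counted as measured where the array held a probe set annotated to that gene and no other. This was so for 30 of the 35, out of 18820 genes measured in all. The other 5 were Nr1i3, Por, Gsta1, Ugt1a1 and Ces2c, which were not analysed here. No filter on low signal was applied, so all 30 measured genes entered every test.

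RNA of the proximal jejunum came from 12 mice in 4 groups of 3, with 1 Affymetrix array per mouse. TLR2 knockout mice (KO, strain B6.129-Tlr2tm1Kir/J, which lack a receptor for bacterial lipoproteins) received methotrexate, an antifolate drug that injures the gut lining, at 40 mg/kg body weight per day by intraperitoneal injection for 4 days, and were killed on day 7. Wild-type mice (WT, C57BL6/J) received the same course. The references were untreated KO mice and untreated WT mice. The labels name no tissue-specific driver for the knockout allele and do not say that the 2 strains were littermates, and they give no age. Values are the authors' log2 RMA signals, on which 1 unit is a doubling, and the SD or range is over 3 mice.

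Drug metabolism runs in stages. Cytochromes P450, esterases, epoxide hydrolases and alcohol dehydrogenases oxidise or hydrolyse a compound, and transferases then attach glutathione, glucuronic acid or sulfate so that it can be exported. PXR, encoded by Nr1i2, and CAR, encoded by Nr1i3, are nuclear receptors that bind foreign compounds or respond to them, pair with RXR and switch on many of these enzymes. In the small intestine the enzymes are made chiefly by the absorptive enterocytes of the villus, where they limit how much of an oral drug reaches the blood.

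In the KO mice, methotrexate came with lower signal for nearly the whole set. Of the 30 genes, 28 were lower in KO mice given methotrexate than in untreated KO mice and none was higher (limma, Benjamini-Hochberg adjusted p under 0.05 over all genes), when 34.8% of all genes tested were called, 16% lower and 18.8% higher. The 28 also had treated values below every untreated value, which held for 21.6% of all genes, while 23% lay wholly above. The median change of the 30 genes was -3.84 on the log2 scale, with a range of -6.60 to -0.44, against a median of -0.02 over all genes. Of the 30, 15 fell by more than 4 log2 units, 9 by 2 to 4 and 6 had a change smaller than 2. The deposited values carry no detection calls, so signals of about 2 to 5, which several genes had in KO mice given methotrexate, may lie at background, and the log2 change there may understate the loss. In the WT mice, methotrexate changed 1 of the 30 genes, Gstp3, upwards, when 0.0744% of all genes were called, 0.0425% higher and 0.0319% lower, and the median change was -0.03 against -0.00 over all genes.

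**Figure D1:**
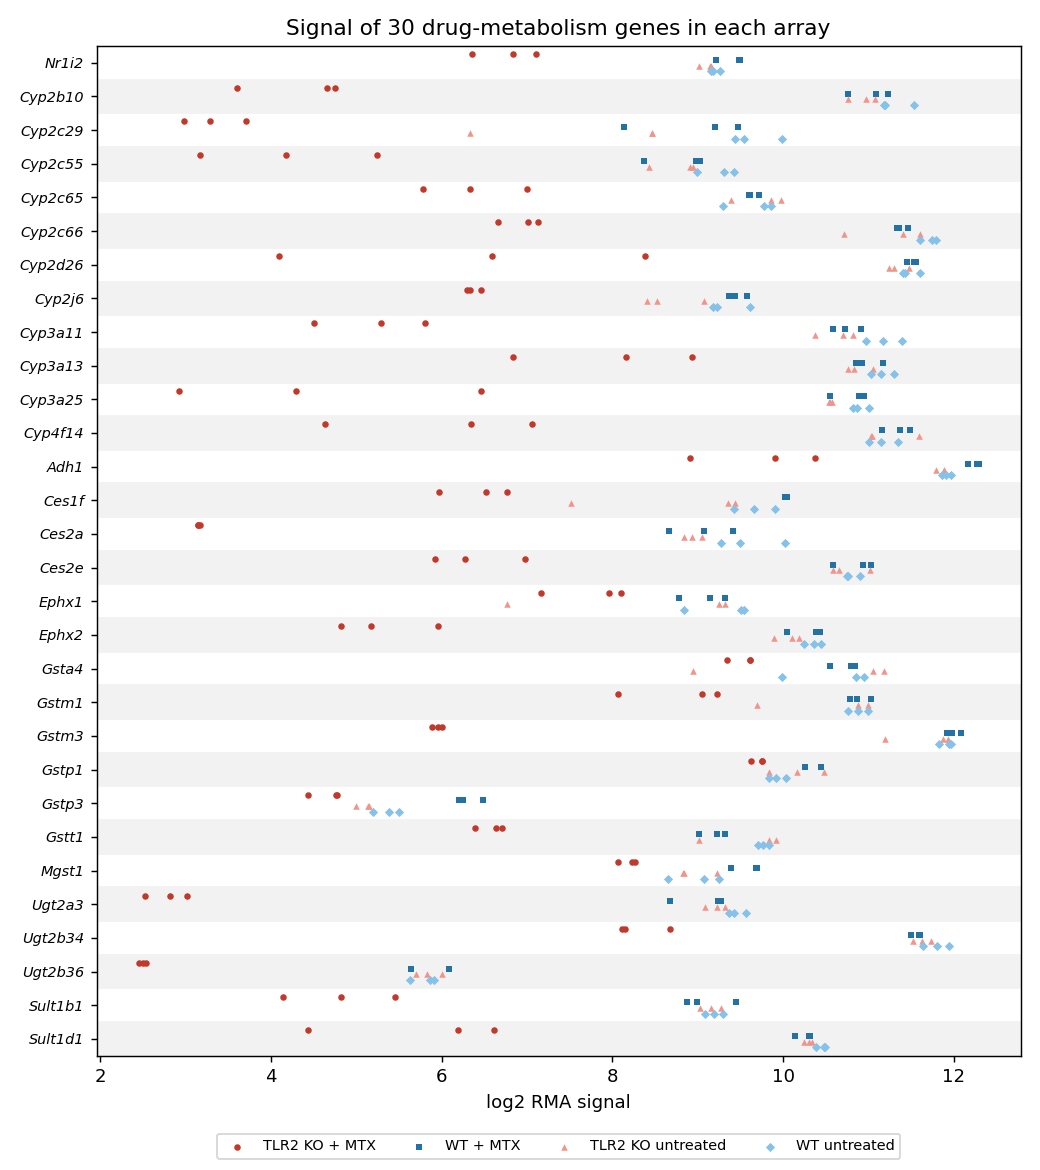
Log2 RMA signal (x axis) of each of the 30 genes in each of the 12 arrays, 3 mice per group, with a row per gene and a symbol and colour per group. The KO mice given methotrexate lie to the left of the untreated KO mice, without overlap, for 28 of the 30 genes, and the exceptions are Gsta4 and Ephx1.

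Several facts about the arrays bear on every value. In all, 7 arrays carried a high signal of 9 pancreatic acinar markers, with means of 12.05 to 12.60, while the means were 3.94 to 5.43 in the remaining 5. High ones were replicates 2 and 3 of KO mice given methotrexate, replicate 2 of WT mice given methotrexate, replicates 2 and 3 of untreated KO mice and replicates 2 and 3 of untreated WT mice. These 7 arrays hold 1 array of WT mice given methotrexate and 2 of each other group. Among them alone, the median change of the 30 genes with methotrexate in KO mice was -3.57, against -0.03 over all genes. The other 5 arrays hold 1 array in each KO group and leave 1 residual degree of freedom, so they give a value and no count, a median change of -3.65. Correlations between arrays of the same group were 0.967 to 0.992, and no arrays held identical values. The targeted gene Tlr2 had a signal of 5.28 to 6.18 in KO mice given methotrexate, 4.49 to 4.65 in WT mice given methotrexate, 4.36 to 5.02 in untreated KO mice and 4.37 to 4.65 in untreated WT mice. Its signal was therefore not lower in the KO groups, but whether the probe set lies in the deleted part is not known here, so it does not check the genotype labels.

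Enterocytes were checked next, since they are the usual source of these enzymes. The mean signal of 12 enterocyte markers was 5.70, 7.01 and 8.04 in KO mice given methotrexate, against 11.46, 11.14 and 11.15 in untreated KO mice, and all 12 markers were lower (median -3.76). Their changes ranged from -7.81 to -2.37, and the largest was that of Lct, which encodes lactase. Lct had a signal of 3.88, 3.45 and 3.64 in KO mice given methotrexate, against 11.86, 11.25 and 11.29 in untreated KO mice. In WT mice given methotrexate the enterocyte mean was 11.42, 11.09 and 11.48, against 11.51, 11.34 and 11.32 in untreated WT mice, and none of the 12 markers was called. The 10 markers of the epithelium in general had means of 9.89 to 10.20 in KO mice given methotrexate, against 10.14 to 10.48 in untreated KO mice, where 6 were lower and 1, Krt18, was higher. Fibroblast markers had means of 9.48 to 9.53 in KO mice given methotrexate, against 7.87 to 8.32 in untreated KO mice, with 7 of 8 higher and 1, Fbln1, lower. Of the other marker lists, 3 of 9 leukocyte markers were higher and 2 lower, 2 of 6 smooth muscle markers and 1 of 6 adipocyte markers were higher, and none of the 9 acinar markers was called. Over all genes, 18.8% were called higher and 16% lower for methotrexate in KO mice. In this bulk tissue, fewer cells of a type and less RNA per cell cannot be told apart, and the part that cell composition has in the results that follow was not tested.

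**Figure D2:**
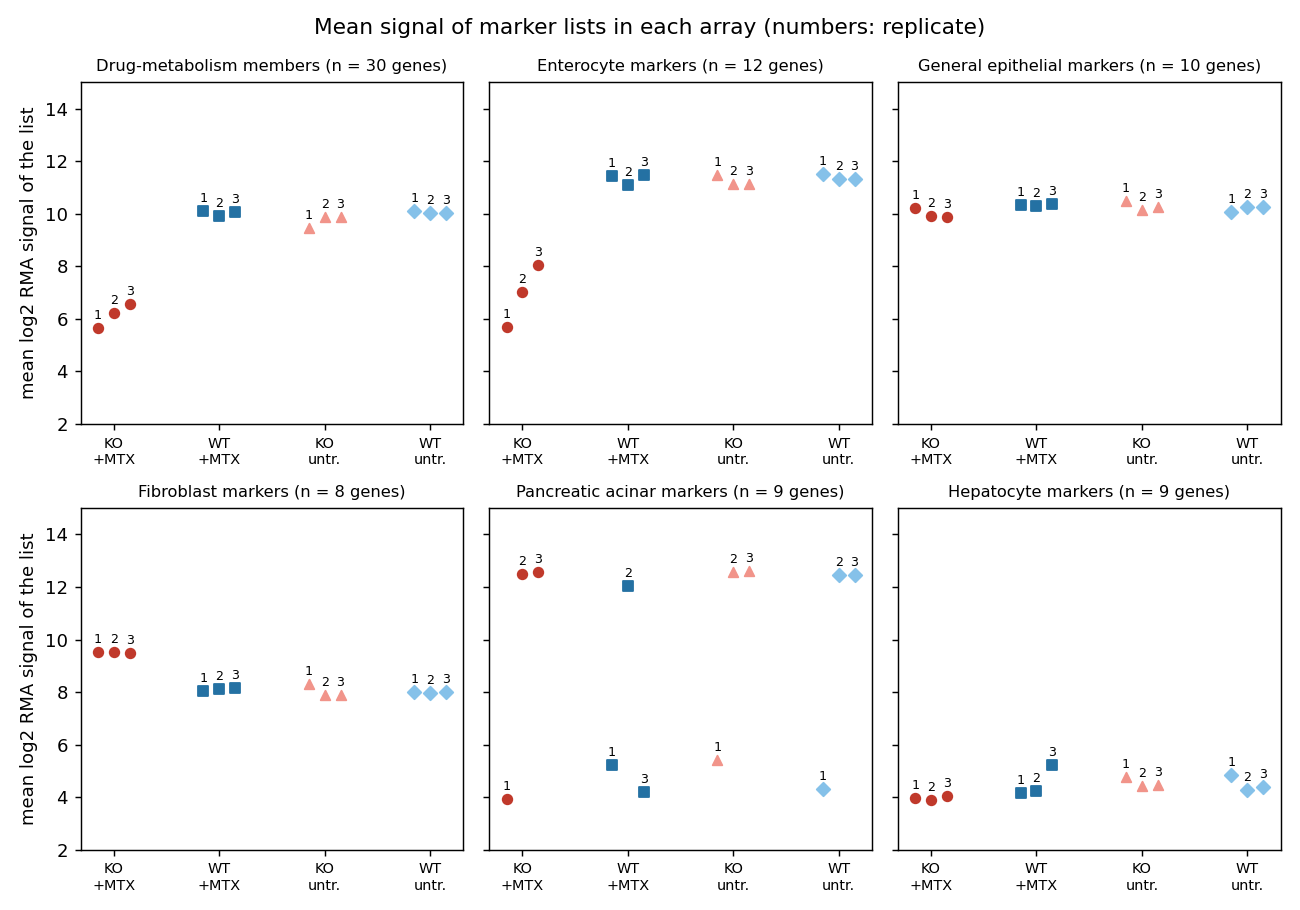
Mean log2 RMA signal (y axis) of the 30 drug-metabolism genes and of 5 marker lists in each of the 12 arrays, in 4 groups of 3 mice, with the replicate number over each point. The drug-metabolism genes and the enterocyte markers are both low in the 3 KO mice given methotrexate, while the general epithelial markers there stay between 9.89 and 10.20 and the acinar markers separate 7 arrays from 5 across the groups.

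The receptor came first. Nr1i2, which encodes PXR, had a signal of 7.11, 6.36 and 6.84 in KO mice given methotrexate, 9.48, 9.21 and 9.49 in WT mice given methotrexate, 9.15, 9.01 and 9.14 in untreated KO mice and 9.15, 9.26 and 9.18 in untreated WT mice. The KO mice given methotrexate lay below all 9 other arrays, which ranged from 9.01 to 9.49. The gene fell by 2.33 ± 0.16 log2 units with methotrexate in KO mice, 5.03-fold, with an adjusted p of 1.01e-06 (limma). In WT mice the change was 0.20 ± 0.16 (adjusted p = 0.636), and the interaction, which is the change in KO mice minus that in WT mice, was -2.53 ± 0.23 with an adjusted p of 1.89e-05.

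All 7 measured cytochromes of family 2 were lower in KO mice given methotrexate, with a median change of -4.43 on the log2 scale. Cyp2b10, a barbiturate-inducible enzyme that is the classical target of CAR, showed the largest change of the 30. Its signal was 3.60, 4.75 and 4.65 in KO mice given methotrexate, 11.09, 10.76 and 11.23 in WT mice given methotrexate, 10.76, 10.97 and 11.08 in untreated KO mice and 11.53, 11.18 and 11.19 in untreated WT mice. It fell by 6.60 ± 0.26 log2 units with methotrexate in KO mice (limma adjusted p = 2.01e-08), and its change in WT mice was -0.27 ± 0.26 (adjusted p = 0.678). At the other end of the family was Cyp2j6, a relative of the human epoxygenase CYP2J2, with 6.30, 6.46 and 6.33 in KO mice given methotrexate, 9.44, 9.37 and 9.58 in WT mice given methotrexate, 9.07, 8.40 and 8.52 in untreated KO mice and 9.61, 9.22 and 9.18 in untreated WT mice. The 3 KO mice given methotrexate were within 0.16 log2 units of each other and below every other array, and the gene fell by 2.30 ± 0.17 log2 units (adjusted p = 1.63e-06).

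Between these lay the 4 measured members of subfamily 2c, enzymes known for oxidising fatty acids such as arachidonate as well as drugs. Cyp2c29, Cyp2c66, Cyp2c65 and Cyp2c55 changed by -4.43 ± 0.52, -4.31 ± 0.20, -3.37 ± 0.27 and -4.56 ± 0.41 log2 units with methotrexate in KO mice, with limma adjusted p-values from 5.63e-08 to 4.9e-05. In the RefSeq annotation these 4 genes follow each other with 0 protein-coding genes between them, in the order Cyp2c55, Cyp2c65, Cyp2c66, Cyp2c29. They are near relatives, and cross-hybridisation between them was not tested. Cyp2c29 differed from the others in the untreated KO mice, whose signals were 6.33, 8.46 and 8.46, against 9.99, 9.44 and 9.54 in untreated WT mice. Replicate 1 was the low one there. Without that array the methotrexate change of Cyp2c29 in KO mice was -5.14. Between the KO arrays without high acinar signal, replicate 1 of each KO group, it was -3.35.

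The remaining member of family 2, Cyp2d26, had the widest spread of all 30 genes in one group. Its signal was 4.09, 6.59 and 8.38 in KO mice given methotrexate, against 11.48, 11.30 and 11.24 in untreated KO mice, so the 3 treated mice spanned over 4 log2 units while all lay below the untreated range. The change was -4.98 ± 0.75 log2 units (limma adjusted p = 0.000314). Without replicate 1 of KO mice given methotrexate it was -3.85, and without replicate 3 it was -6.00.

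Family 3 holds the main drug-oxidising enzymes of the gut wall, many of them PXR targets. All 3 measured members were lower. Cyp3a11, usually taken as the mouse counterpart of human CYP3A4, had 4.50, 5.29 and 5.80 in KO mice given methotrexate, 10.91, 10.58 and 10.73 in WT mice given methotrexate, 10.37, 10.82 and 10.70 in untreated KO mice and 11.39, 11.17 and 10.97 in untreated WT mice. It fell by 5.43 ± 0.27 log2 units, 43.2-fold, with methotrexate in KO mice (limma adjusted p = 7.54e-08), while in WT mice the change was -0.44 ± 0.27 (adjusted p = 0.526). Its neighbour Cyp3a25, with 0 protein-coding genes between them, had 2.92, 4.29 and 6.46 in KO mice given methotrexate, 10.89, 10.55 and 10.95 in WT mice given methotrexate, 10.57, 10.55 and 10.54 in untreated KO mice and 11.01, 10.82 and 10.87 in untreated WT mice. In KO mice that is a change of -6.00 ± 0.63 (adjusted p = 1.93e-05), which was -5.18 without replicate 1 and -6.95 without replicate 3 of KO mice given methotrexate. Cyp3a13, the family member with the smallest change, had 6.84, 8.16 and 8.93 in KO mice given methotrexate, 10.85, 10.93 and 11.17 in WT mice given methotrexate, 10.76, 10.83 and 11.05 in untreated KO mice and 11.03, 11.30 and 11.15 in untreated WT mice. It changed by -2.90 ± 0.39 in KO mice (adjusted p = 0.000119).

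Cyp4f14 stood alone for family 4, whose enzymes hydroxylate the end of fatty acid chains and inactivate leukotriene B4. Its signal was 4.63, 6.34 and 7.06 in KO mice given methotrexate, 11.49, 11.16 and 11.37 in WT mice given methotrexate, 11.59, 11.03 and 11.04 in untreated KO mice and 11.01, 11.15 and 11.35 in untreated WT mice. The treated KO mice were lowest, and the other 3 groups overlapped. It fell by 5.21 ± 0.46 log2 units, 36.9-fold, in KO mice (limma adjusted p = 5.35e-06), and the change was -4.52 without replicate 1 of KO mice given methotrexate.

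**Figure D3:**
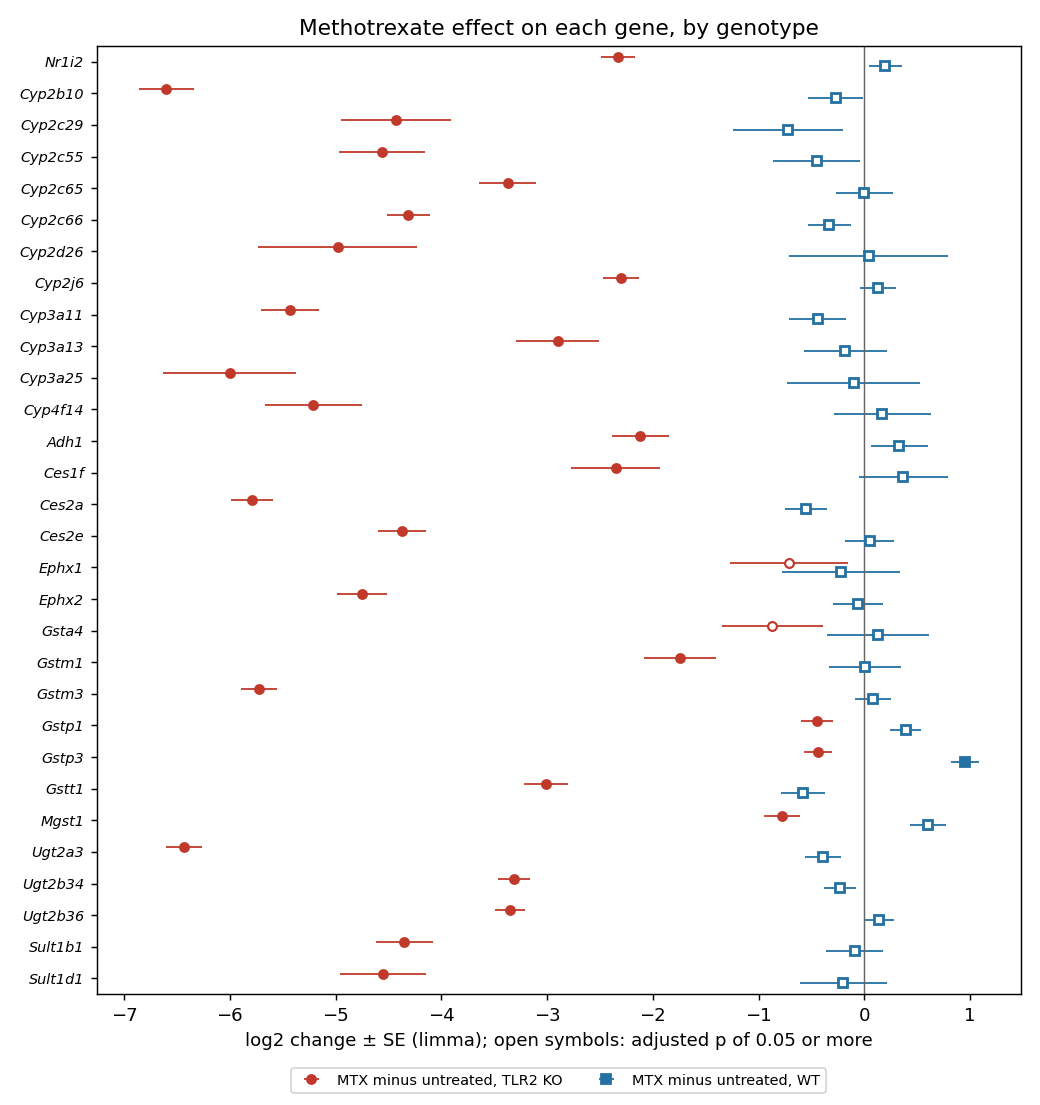
Log2 change with methotrexate (x axis, methotrexate minus untreated, limma estimate ± SE, 3 mice per group) for each of the 30 genes, in KO mice and in WT mice, with open symbols where the adjusted p was 0.05 or more. The changes in KO mice run from -6.60 to -0.44 and those in WT mice from -0.72 to 0.95, and the filled WT symbol is Gstp3.

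Sequence before the start of transcription was looked at for genes of the set that moved by very different amounts. The windows are those of RefSeq on build GRCm38.p6, running from 250 bases before to 50 bases after each annotated start, and 27 of the 30 measured genes had at least one, 34 windows in all. Some windows of the same gene overlap. The letters searched, on both strands, were AGTTCA and AGGTCA (motifs bound by nuclear receptors such as PXR), AAAGTCC (part of the HNF4 motif), GTTAAT (part of the HNF1 motif), TATAAA (the letters of the TATA box, at any position) and TGACNNNGC (the core of the antioxidant response element). Windows of 5 genes are printed, 5′ to 3′ on the strand of the gene, with every match in capitals, and no matches overlap each other. Cyp3a11 (chr5:145879805-145880104, minus strand) is shown for its 4 matches, Ugt2a3 (chr5:87337146-87337445, minus strand) for a gene among those that fell most, Cyp2c65 (chr19:39060756-39061055, plus strand) and Cyp2c66 (chr19:39113648-39113947, plus strand) for neighbours that can be read against each other, and Gstp3 (chr19:4059398-4059697, minus strand) for the gene that moved least in KO mice and was higher in WT mice.
Cyp3a11: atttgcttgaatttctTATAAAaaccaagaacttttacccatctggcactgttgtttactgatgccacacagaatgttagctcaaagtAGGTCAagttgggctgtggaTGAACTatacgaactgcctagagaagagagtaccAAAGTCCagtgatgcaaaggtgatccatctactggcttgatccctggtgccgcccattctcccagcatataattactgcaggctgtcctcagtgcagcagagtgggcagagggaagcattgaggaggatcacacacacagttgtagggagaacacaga
Ugt2a3: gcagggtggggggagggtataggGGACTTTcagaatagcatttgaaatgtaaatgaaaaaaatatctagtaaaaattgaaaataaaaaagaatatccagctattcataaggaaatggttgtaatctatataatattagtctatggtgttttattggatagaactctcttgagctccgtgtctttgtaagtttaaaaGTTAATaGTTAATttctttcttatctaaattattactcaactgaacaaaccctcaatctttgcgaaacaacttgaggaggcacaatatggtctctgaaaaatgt
Cyp2c65: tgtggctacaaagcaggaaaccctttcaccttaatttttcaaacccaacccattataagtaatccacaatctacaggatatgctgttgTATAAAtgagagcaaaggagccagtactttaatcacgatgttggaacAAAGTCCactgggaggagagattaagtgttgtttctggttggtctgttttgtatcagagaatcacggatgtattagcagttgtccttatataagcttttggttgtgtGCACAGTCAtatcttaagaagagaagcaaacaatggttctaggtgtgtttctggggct
Cyp2c66: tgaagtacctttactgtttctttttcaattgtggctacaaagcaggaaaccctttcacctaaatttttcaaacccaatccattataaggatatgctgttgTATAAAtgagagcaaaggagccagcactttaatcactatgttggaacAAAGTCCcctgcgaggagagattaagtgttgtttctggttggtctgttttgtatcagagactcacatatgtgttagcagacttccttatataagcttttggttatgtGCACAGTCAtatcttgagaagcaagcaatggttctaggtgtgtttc
Gstp3: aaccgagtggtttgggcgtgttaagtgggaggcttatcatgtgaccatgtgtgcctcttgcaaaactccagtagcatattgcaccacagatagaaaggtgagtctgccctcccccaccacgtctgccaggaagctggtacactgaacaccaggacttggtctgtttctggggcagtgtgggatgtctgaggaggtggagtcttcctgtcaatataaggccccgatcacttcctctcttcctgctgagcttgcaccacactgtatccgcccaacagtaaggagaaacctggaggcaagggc
The Cyp3a11 window held TATAAA, both receptor motifs, one of them on the opposite strand, and the HNF4 letters. The windows of Cyp2c65 and Cyp2c66 each held TATAAA, the HNF4 letters and the antioxidant core on the opposite strand, in the same order. The Ugt2a3 window held the HNF4 letters on the opposite strand and the HNF1 letters at 2 positions, and the Gstp3 window held none of the letters searched. Over the 34 windows, AAAGTCC was in 6 (17.6%, against 4.2% of the 32851 windows of all genes), namely in windows of Ugt2a3, Sult1b1, Cyp3a11, Mgst1, Cyp2c65 and Cyp2c66. TATAAA was in 9 (26.5%, against 13.6%), AGGTCA in 8 (23.5%, against 16.3%), AGTTCA in 3 (8.8%, against 14.0%), GTTAAT in 4 (11.8%, against 7.1%) and the antioxidant core in 5 (14.7%, against 12.4%). These are counts of letters, with no test.

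Enzymes that hydrolyse esters and epoxides followed the cytochromes, with an exception. All 3 measured carboxylesterases, which cleave ester drugs and prodrugs, were lower, with a median change of -4.37. Ces2a had a signal of 3.14, 3.14 and 3.17 in KO mice given methotrexate, 9.07, 8.66 and 9.41 in WT mice given methotrexate, 9.05, 8.93 and 8.84 in untreated KO mice and 10.02, 9.50 and 9.27 in untreated WT mice. The treated KO mice lay below all 9 other arrays, and the gene fell by 5.79 ± 0.20 log2 units (limma adjusted p = 1.13e-08). Ces2e, 2 protein-coding genes away, changed by -4.37 ± 0.23 (adjusted p = 1.26e-07). Ces1f had 6.52, 6.76 and 5.97 in KO mice given methotrexate, 10.03, 10.04 and 10.02 in WT mice given methotrexate, 7.51, 9.44 and 9.35 in untreated KO mice and 9.91, 9.42 and 9.66 in untreated WT mice. Replicate 1 of the untreated KO mice was low. Its change in KO mice was -2.35 ± 0.42 (adjusted p = 0.00102), which was -2.98 without that array and -0.98 between the 2 KO arrays without high acinar signal, 1 treated and 1 untreated.

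The 2 epoxide hydrolases differed in their calls. Ephx2, the soluble enzyme that acts on epoxides of fatty acids, had 4.82, 5.17 and 5.96 in KO mice given methotrexate, 10.43, 10.05 and 10.38 in WT mice given methotrexate, 9.89, 10.10 and 10.19 in untreated KO mice and 10.45, 10.25 and 10.36 in untreated WT mice. The treated KO mice lay well below the rest, a fall of 4.75 ± 0.24 log2 units, 26.8-fold (limma adjusted p = 7.6e-08). Ephx1, the microsomal enzyme that detoxifies epoxides of foreign compounds, had 7.16, 7.96 and 8.10 in KO mice given methotrexate, 9.32, 9.14 and 8.78 in WT mice given methotrexate, 6.77, 9.25 and 9.32 in untreated KO mice and 8.84, 9.51 and 9.54 in untreated WT mice. The untreated KO mice of replicates 2 and 3 were above the treated ones and replicate 1 was below all of them, so the groups overlapped. The change of Ephx1 was -0.71 ± 0.56 (adjusted p = 0.38), and without replicate 1 of untreated KO mice it was -1.54 with an adjusted p of 0.00225 (limma). Between the KO arrays without high acinar signal, replicate 1 of each KO group, the change of Ephx1 was 0.39. Adh1, a class I alcohol dehydrogenase that oxidises ethanol and retinol, had 8.91, 10.37 and 9.90 in KO mice given methotrexate, 12.29, 12.17 and 12.27 in WT mice given methotrexate, 11.79, 11.88 and 11.88 in untreated KO mice and 11.86, 11.91 and 11.97 in untreated WT mice. It fell by 2.12 ± 0.27 log2 units in KO mice (adjusted p = 8.41e-05).

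The glutathione transferases were the most mixed family. Of the 7, 6 were lower in KO mice given methotrexate, but the median change was -0.87. Gstm3, of the mu class, had 5.96, 6.00 and 5.88 in KO mice given methotrexate, 12.08, 11.92 and 11.98 in WT mice given methotrexate, 11.19, 11.87 and 11.93 in untreated KO mice and 11.95, 11.97 and 11.83 in untreated WT mice. The 3 KO mice given methotrexate stood apart from all 9 other arrays, and the gene fell by 5.72 ± 0.17 log2 units, 52.7-fold, against untreated KO mice (limma adjusted p = 3.68e-09). A second probe set of Gstm3 read 5.19, 4.54 and 5.03 in KO mice given methotrexate, 12.28, 12.11 and 12.13 in WT mice given methotrexate, 11.48, 12.01 and 12.04 in untreated KO mice and 12.68, 12.20 and 11.90 in untreated WT mice, again far lowest in KO mice given methotrexate. Gstm1, which has 1 protein-coding gene between it and Gstm3, had 8.06, 9.05 and 9.22 in KO mice given methotrexate, against 9.69, 10.88 and 10.99 in untreated KO mice. Its change was -1.74 ± 0.34 (adjusted p = 0.00205), smaller than that of Gstm3 by more than their standard errors, although the difference between the 2 genes was not tested.

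Gstt1, of the theta class, fell by 3.01 ± 0.21 log2 units, 8.06-fold, in KO mice (limma adjusted p = 7.88e-07). The membrane-bound Mgst1, which also reduces lipid peroxides, had 8.27, 8.23 and 8.06 in KO mice given methotrexate, 9.39, 9.69 and 9.68 in WT mice given methotrexate, 9.22, 8.83 and 8.84 in untreated KO mice and 9.25, 8.65 and 9.07 in untreated WT mice. It fell by 0.78 ± 0.17 in KO mice (adjusted p = 0.0034), and its change in WT mice was 0.60 ± 0.17, which did not pass the adjustment (0.213). Gsta4, which conjugates the lipid peroxidation product 4-hydroxynonenal, had 9.34, 9.61 and 9.61 in KO mice given methotrexate, 10.84, 10.79 and 10.55 in WT mice given methotrexate, 8.95, 11.18 and 11.05 in untreated KO mice and 9.99, 10.85 and 10.95 in untreated WT mice. Replicate 1 of the untreated KO mice was below the treated mice and the other untreated mice were above them, and the change was -0.87 ± 0.48 (adjusted p = 0.199). Without that array it was -1.60 with an adjusted p of 0.000591 (limma). Between the KO arrays without high acinar signal, replicate 1 of each KO group, the change of Gsta4 was 0.40.

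The pi class held the gene of the set that passed the test in both genotypes, in opposite directions. Gstp3 had 4.77, 4.76 and 4.43 in KO mice given methotrexate, 6.25, 6.20 and 6.48 in WT mice given methotrexate, 5.13, 4.99 and 5.15 in untreated KO mice and 5.50, 5.38 and 5.19 in untreated WT mice. It was lowest in KO mice given methotrexate and highest in WT mice given methotrexate, with no overlap of either group with the rest. Methotrexate came with a fall of 0.44 ± 0.13 log2 units in KO mice (limma adjusted p = 0.0203) and a rise of 0.95 ± 0.13 in WT mice, 1.93-fold (adjusted p = 0.0437), and the interaction was -1.39 ± 0.18 (adjusted p = 0.000199). The WT rise did not pass the threshold in most of the alternative settings, and over all 23 its size ranged from 0.84 to 1.02. It was lost without any of replicates 1, 2 and 3 of WT mice given methotrexate (adjusted p = 0.0879, 0.0744 and 0.105), replicates 1, 2 and 3 of untreated WT mice (0.115, 0.242 and 0.12), replicate 2 of KO mice given methotrexate (0.061), or replicates 2 and 3 of untreated KO mice (0.0868 and 0.0553), all by limma.

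Gstp1, with 1 protein-coding gene between it and Gstp3, had 9.75, 9.62 and 9.75 in KO mice given methotrexate, 10.45, 10.26 and 10.26 in WT mice given methotrexate, 9.84, 10.16 and 10.48 in untreated KO mice and 10.03, 9.84 and 9.92 in untreated WT mice. Its change in KO mice was -0.45 ± 0.15 (limma adjusted p = 0.0312) and in WT mice 0.39 ± 0.15 (adjusted p = 0.344), with an interaction of -0.84 ± 0.21 (adjusted p = 0.0104). Between the 2 KO arrays without high acinar signal its change was -0.09. The KO call of Gstp1 was lost without replicate 2 or 3 of KO mice given methotrexate (adjusted p = 0.0968 and 0.0555) or replicate 2 or 3 of untreated KO mice (0.0748 and 0.118). That of Gstp3 was lost without replicate 3 of KO mice given methotrexate (0.0768) or replicate 1 or 3 of untreated KO mice (0.0538 and 0.0652), also by limma.

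**Figure D4:**
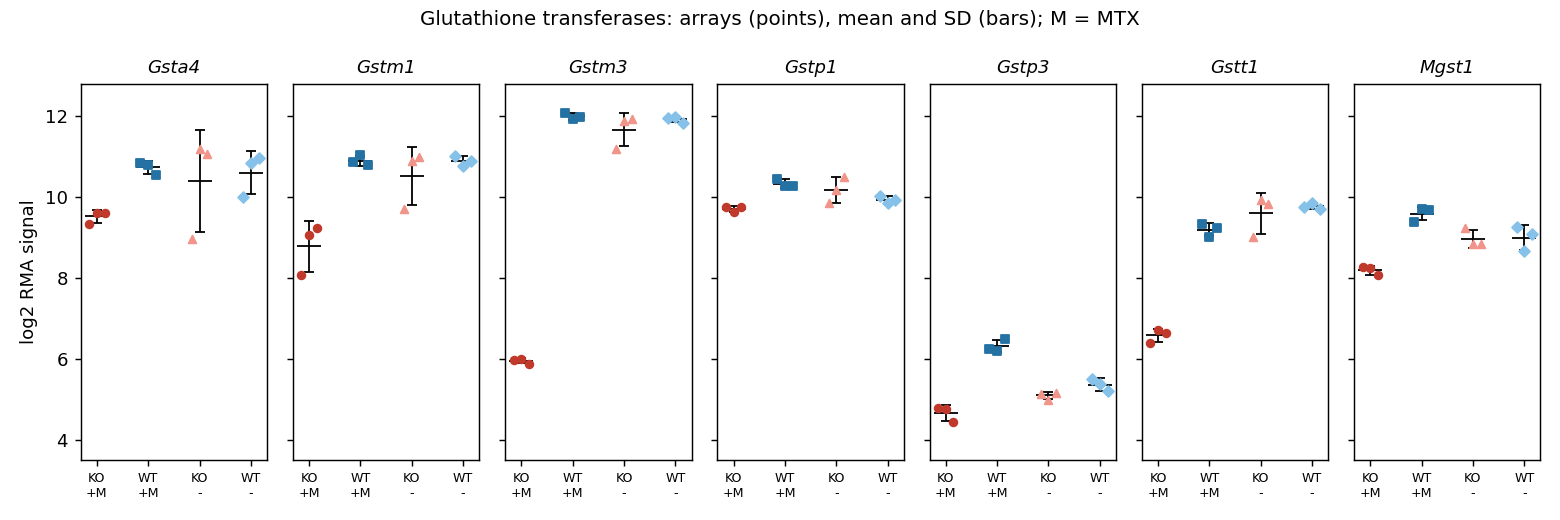
Log2 RMA signal (y axis) of the 7 measured glutathione transferases in each array, with the mean and SD of each group of 3 mice as bars, M standing for methotrexate and a dash for untreated. Gstm3 averages 5.94 in KO mice given methotrexate and 11.66 in untreated KO mice, while Gstp1 averages 9.71 and 10.16, and Gstp3 is highest in WT mice given methotrexate at 6.31, against 5.36 in untreated WT mice.

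The glucuronosyltransferases and sulfotransferases, which attach glucuronic acid and sulfate, were lower in all 5 measured genes. Ugt2a3 had 2.52, 3.01 and 2.81 in KO mice given methotrexate, 9.24, 8.67 and 9.27 in WT mice given methotrexate, 9.32, 9.09 and 9.22 in untreated KO mice and 9.56, 9.42 and 9.37 in untreated WT mice. It fell by 6.43 ± 0.17 log2 units in KO mice, with the smallest adjusted p of the 30 genes (3.17e-09, limma). Ugt2b34 had 8.15, 8.11 and 8.68 in KO mice given methotrexate, 11.60, 11.50 and 11.59 in WT mice given methotrexate, 11.52, 11.73 and 11.63 in untreated KO mice and 11.80, 11.95 and 11.64 in untreated WT mice. It changed by -3.31 ± 0.15 in KO mice (adjusted p = 4.53e-08). Ugt2b36 changed by -3.35 ± 0.14, and its 3 values in KO mice given methotrexate were 2.53, 2.45 and 2.50.

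Sult1d1, a sulfotransferase of catecholamines and related amines in mice, had 4.43, 6.19 and 6.61 in KO mice given methotrexate, 10.31, 10.14 and 10.30 in WT mice given methotrexate, 10.25, 10.30 and 10.34 in untreated KO mice and 10.48, 10.38 and 10.49 in untreated WT mice. The treated KO mice spanned over 2 log2 units and stayed below every other array. The gene fell by 4.55 ± 0.41 log2 units (limma adjusted p = 6.18e-06), and the change was -3.90 without replicate 1 of KO mice given methotrexate. Its neighbour Sult1b1, which sulfates phenols and thyroid hormones, had 4.14, 4.82 and 5.45 in KO mice given methotrexate, 8.99, 8.87 and 9.45 in WT mice given methotrexate, 9.15, 9.03 and 9.27 in untreated KO mice and 9.08, 9.30 and 9.19 in untreated WT mice. It changed by -4.35 ± 0.27 in KO mice (adjusted p = 3.67e-07).

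Within the KO mice given methotrexate the genes did not all vary alike. Replicate 1 was the lowest of the 3 mice for 21 of the 30 genes and replicate 3 the highest for 16, and the enterocyte mean was also lowest in replicate 1 (5.70) and highest in replicate 3 (8.04). Over the 3 mice, 6 genes spanned more than 2 log2 units, namely Cyp2c55, Cyp2d26, Cyp3a13, Cyp3a25, Cyp4f14 and Sult1d1. Another 7 spanned less than 0.3, namely Cyp2j6, Ces2a, Ugt2b36, Gstm3, Gstp1, Gsta4 and Mgst1, and for Ces2a and Ugt2b36, at 2.45 to 3.17, no detection call tells whether these signals were above background. The median SD of the 30 genes was 0.45 in KO mice given methotrexate, 0.17 in WT mice given methotrexate, 0.23 in untreated KO mice and 0.15 in untreated WT mice. Replicate 1 of KO mice given methotrexate is also the array of that group without high acinar signal, and the part of either in the spread was not tested.

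Set directly against WT mice given methotrexate, KO mice given methotrexate were lower in 28 of the 30 genes and higher in none, when 16.8% of all genes tested were called lower and 20.2% higher. The median difference, KO minus WT, was -3.96, with a range of -6.69 to -0.62. All 30 genes had KO values below every WT value, which was so for 22% of all genes, while 24.2% lay above. The 2 genes not called were Gsta4, at -1.21 ± 0.48 (limma adjusted p = 0.0745), and Ephx1, at -1.34 ± 0.56 (adjusted p = 0.088). Without replicate 1 of untreated KO mice, an array that is in the fit but not in this comparison, their adjusted p-values were 0.00131 and 0.00206. The largest difference was that of Cyp2b10, -6.69 ± 0.26, followed by Ugt2a3 with -6.28 ± 0.17 and Cyp3a25 with -6.24 ± 0.63. This comparison and the one within KO mice share the 3 arrays of KO mice given methotrexate.

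The change with methotrexate differed between the genotypes for 28 of the 30 genes, all with a more negative change in KO mice, when 23.8% of all genes tested had an interaction call, 11.8% higher and 12% lower. The median interaction of the 30 was -3.59 and the range -6.33 to -0.49. Gsta4 (adjusted p = 0.361, limma) and Ephx1 (0.744) were not called. The call of Gstm1, -1.75 ± 0.49 (adjusted p = 0.0213), was lost without replicate 2 or 3 of untreated KO mice (0.0561 and 0.0534) or replicate 2 of untreated WT mice (0.0517).

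In WT mice the change with methotrexate was between -0.72 and 0.95 for the 30 genes, 15 positive and 15 negative. Besides Gstp3, 5 genes had an unadjusted limma p under 0.05, namely Mgst1 (0.60 ± 0.17) and Gstp1 (0.39 ± 0.15) with positive changes and Gstt1 (-0.58 ± 0.21), Ces2a (-0.55 ± 0.20) and Ugt2a3 (-0.39 ± 0.17) with negative ones. Over all genes 11.7% had such a p. Methotrexate-treated WT mice lay above all untreated WT mice for 5 of the 30 genes and below them for 6, when 13.5% and 9.18% of all genes did. A p that misses the threshold does not show that a gene was unchanged.

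Without methotrexate, none of the 30 genes differed between KO and WT mice by limma, when 0.0106% of all genes tested were called (0.00531% higher and 0.00531% lower), and 4 had an unadjusted p under 0.05, against 6.19% of all genes. The median difference, KO minus WT, was -0.25, and 26 of the 30 were negative. Untreated KO mice lay below all untreated WT mice for 12 of the 30 genes and above them for none, when 5.63% and 7.47% of all genes did. The 4 genes with an unadjusted p under 0.05 were Cyp2c29 at -1.91 ± 0.52 (adjusted p = 0.744, limma), Cyp2j6 at -0.67 ± 0.17 (0.744), Ces2a at -0.66 ± 0.20 (0.783) and Cyp2c66 at -0.47 ± 0.20 (0.786). Cyp2j6 read 9.07, 8.40 and 8.52 in untreated KO mice, against 9.61, 9.22 and 9.18 in untreated WT mice. Replicate 1 of the untreated KO mice was more than 1 log2 unit below the other 2 for Cyp2c29, Ces1f, Ephx1, Gsta4 and Gstm1, and without it the median difference was -0.17. The same array had an acinar marker mean of 5.43, against 12.56 and 12.60 in the other untreated KO mice. Its smooth muscle marker mean was 10.19, against 9.33 and 9.17 in those mice, and its fibroblast marker mean was 8.32, against 7.87 and 7.88. The part of these differences in its low values was not tested.

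Other enzymes of the same pathway were called lower more often than higher. Among 65 measured enzymes of the first stage outside the set, 38 were lower and 3 higher in KO mice given methotrexate, with a median change of -0.78. In the same comparison 16% of all genes were called lower and 18.8% higher. Those with the smallest p were Cyp2s1 (-3.50 ± 0.15), Akr1c14 (-4.52 ± 0.21), a hydroxysteroid dehydrogenase, and Cyp2c68 (-3.33 ± 0.16). The 3 that were higher were Fmo2 (2.32 ± 0.23), a flavin monooxygenase, Akr1b8 (3.69 ± 0.60), an aldose reductase relative, and Aox1 (1.01 ± 0.19), an aldehyde oxidase, an enzyme known to hydroxylate methotrexate itself. Aox1 read 4.95, 5.79 and 5.34 in KO mice given methotrexate, against 4.32, 4.22 and 4.51 in untreated KO mice.

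Among 37 further conjugating enzymes, 19 were lower and 5 higher, with a median of -0.72, when 16% of all genes were called lower and 18.8% higher. Gstm6 (-4.56 ± 0.27), Sult2b1 (-3.30 ± 0.20) and Mgst3 (-1.76 ± 0.10) were among the lower ones. Nnmt, which methylates nicotinamide, was higher by 2.74 ± 0.18, Sult1a1, which sulfates phenols, by 2.22 ± 0.47 and Sult4a1 by 0.66 ± 0.14. Sult4a1 read 3.95, 4.09 and 4.02 in KO mice given methotrexate, against 3.26, 3.69 and 3.11 in untreated KO mice, signals that may lie at background. Of 20 drug transporters, 10 were lower and 6 higher (median -1.10), against 16% and 18.8% of all genes. Slc47a1 (-4.03 ± 0.19), a cation exporter, Abcg2 (-2.02 ± 0.15), an apical exporter that carries methotrexate among other substrates, and Slc22a5 (-1.83 ± 0.14), the carnitine carrier, fell. Abcb1b (2.25 ± 0.14), a P-glycoprotein, and Abcc4 (2.47 ± 0.19), an exporter that also carries methotrexate, rose. Abcc4 read 8.29, 8.24 and 7.87 in KO mice given methotrexate, against 5.84, 5.55 and 5.59 in untreated KO mice. None of the genes in these 3 lists was called for methotrexate in WT mice (limma).

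Transcription factors that work beside PXR were also looked at. Of 34 measured nuclear receptors and regulators outside the set, 17 were lower and 4 higher in KO mice given methotrexate, with a median of -0.76. The shares of all genes were 16% lower and 18.8% higher. No gene of this list was called in WT mice. Hnf4g, an HNF4 receptor of the intestinal epithelium, read 6.46, 5.24 and 5.38 in KO mice given methotrexate, against 10.73, 10.43 and 10.47 in untreated KO mice, a change of -4.85 ± 0.25 (limma adjusted p = 1.07e-07). Ppara, the fatty acid receptor, changed by -2.90 ± 0.20 and the coactivator gene Ppargc1a by -2.93 ± 0.21. Higher were Nr2f2 (1.26 ± 0.14) and Nr2f1 (1.23 ± 0.24), both COUP-TF receptors, and Cebpb (1.40 ± 0.17). Chosen after their values were seen, the partner genes Hnf4a and Rxra were also read. Hnf4a changed by -1.44 ± 0.21 (adjusted p = 0.000218) and Rxra, which encodes a partner of PXR, by -0.83 ± 0.18 (adjusted p = 0.00317, limma). The RXR genes Rxrb (0.20 ± 0.11) and Rxrg (0.01 ± 0.15) were not called in KO mice. The interaction was called for Hnf4a (-1.55 ± 0.29, adjusted p = 0.00232) but not for Rxra (-0.64 ± 0.25, adjusted p = 0.0902, limma).

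Markers of other tissues were set beside these values because liver makes many of the same enzymes. The mean signal of 9 hepatocyte markers was 3.88 to 4.06 in KO mice given methotrexate, 4.17 to 5.23 in WT mice given methotrexate, 4.44 to 4.78 in untreated KO mice and 4.28 to 4.85 in untreated WT mice. This mean includes Cps1, described below, so it is not a measure of liver RNA alone. Apoh was at 2.57 to 3.44 in all 12 arrays. The 2 markers called with methotrexate in KO mice went opposite ways. Cps1, which the small intestine also makes, read 7.14, 5.50 and 6.60 in KO mice given methotrexate, 11.16, 11.30 and 11.03 in WT mice given methotrexate, 11.01, 10.95 and 10.97 in untreated KO mice and 10.43, 10.93 and 10.93 in untreated WT mice, a KO change of -4.57 ± 0.32 (limma adjusted p = 9.49e-07). Tat, a liver enzyme of tyrosine breakdown, read 6.59, 5.06 and 5.77 in KO mice given methotrexate, 3.09, 2.94 and 3.67 in WT mice given methotrexate, 3.35, 3.56 and 3.19 in untreated KO mice and 3.72, 3.07 and 3.21 in untreated WT mice, a KO change of 2.44 ± 0.34 (adjusted p = 0.000152). Albumin (Alb) read 3.16 to 5.36 in 10 arrays, and 8.16 in replicate 3 of WT mice given methotrexate and 7.18 in replicate 1 of untreated KO mice. The part of liver RNA in the values of those 2 arrays was not tested. Replicate 1 of untreated WT mice stood apart in 6 adipocyte markers, with a mean of 7.15, against 4.58 and 4.57 in the other untreated WT mice. The part of fat RNA in the values of that array was not tested either.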

How the data were processed

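The authors deposited log2 signals per probe set, which they made with RMA (version not stated), per the submitters' processing notes. RMA subtracts background, brings arrays to one distribution and combines the probes of a set. Per the labels' protocols, 100 ng of DNase-treated total RNA per mouse was amplified for the array. The genome build of the array's annotation was not given in the sources used. The table held 35556 probe sets, of which 21218 were annotated to 1 gene, 1881 to several and 12457 to none, with 0 missing values. The brightest single-gene probe set stood for each of 18820 genes, and the deposited log2 values were not scaled further. Array medians were 4.37 to 4.56.

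Groups were compared in R 4.3.3 by limma 3.58.1, using lmFit and eBayes on a single fit of all 12 arrays with a mean per group and 8 residual degrees of freedom, and p-values were adjusted by Benjamini-Hochberg over all 18820 genes. A gene is called at an adjusted p under 0.05. Values after ± are standard errors of a log2 change unless SD is stated. The script was tested on simulated data. The members and the gene lists were chosen with earlier results of these data known, so their counts are descriptions. Values of every array were given for the receptor, for the members with the largest and the smallest change of each enzyme family in KO mice given methotrexate and for members called in WT mice, and up to 3 genes per direction of other lists were named by smallest p. Members described with values outside that rule, Cyp3a11, Cyp2c29, Cyp2d26, Gstm1, Gstp1, Gsta4 and Mgst1 among them, were chosen after their values were seen.

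Whether replicate numbers pair the mice was checked from the correlation of same-numbered arrays' deviations from their group means. It was 0.50, 0.29 and 0.43 for methotrexate in KO mice and 0.67, 0.50 and 0.50 for KO against WT untreated, all above 0.1. It was 0.29, 0.53 and -0.49 for methotrexate in WT mice and 0.12, 0.25 and -0.15 for KO against WT after methotrexate. The labels do not say that numbers are shared. Same-numbered arrays also share acinar signal in most cases. Alternatives were other scalings, probe set rules, filters, variance models, a replicate block, array weights, acinar signal as a block or a split at a mean of 8, and leaving out each array. Promoter windows came from RefSeq. Protein sequences were not used here.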

Additional observations from a re-analysis of the deposited data

Results flagged for a closer look

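The 28 genes given here were set apart because their change with methotrexate differed between the genotypes by limma's interaction test (change in KO mice minus change in WT mice, log2 units, Benjamini-Hochberg adjusted p under 0.05 over all genes). Of all genes tested, 23.8% had such a call, 11.8% higher and 12% lower. All values that follow are interactions. The value was -2.53 for the receptor gene Nr1i2. Among the cytochromes it was -6.33 for Cyp2b10, -3.70 for Cyp2c29, -4.11 for Cyp2c55, -3.37 for Cyp2c65, -3.98 for Cyp2c66, -5.02 for Cyp2d26 and -2.43 for Cyp2j6. Families 3 and 4 gave -5.00 for Cyp3a11, -2.73 for Cyp3a13, -5.90 for Cyp3a25 and -5.38 for Cyp4f14. For the hydrolases and the dehydrogenase it was -2.71 for Ces1f, -5.24 for Ces2a, -4.42 for Ces2e, -4.68 for Ephx2 and -2.45 for Adh1. The glutathione transferases spread most, with -1.75 for Gstm1, -5.80 for Gstm3, -0.84 for Gstp1, -1.39 for Gstp3, -2.43 for Gstt1 and -1.37 for Mgst1. The remaining transferases gave -6.04 for Ugt2a3, -3.08 for Ugt2b34, -3.48 for Ugt2b36, -4.26 for Sult1b1 and -4.36 for Sult1d1. Enterocyte markers were also lower in KO mice given methotrexate, and 9 of 12 had a lower interaction call, and the part of cell composition in these values was not tested.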

How the results depend on the processing

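Across 23 alternative settings, 22 for the interaction, no called change of the 30 genes turned its direction. Some of these could not alter an estimate, such as another variance model or leaving out an array outside the comparison. The counts that follow leave aside the arrays without high acinar signal, whose fit gives no count. Leaving aside the 2-fold minimum too, 26 of the 28 genes lower with methotrexate in KO mice were called in every setting. All 28 in KO against WT mice after methotrexate were also called in every setting, as were the interaction calls other than that of Gstm1. The count for methotrexate in KO mice was 26 to 29 when single arrays were left out and 25 to 30 otherwise, with 25 under a further setting, a minimum of 2-fold. For KO against WT mice after methotrexate it was 28 to 30 and 27 to 30, and for the interaction 27 to 30 and 27 to 30. Over these settings the share of all genes called moved too, from 28.4% to 48.4% for methotrexate in KO mice. It ran from 31.1% to 47.6% for KO against WT mice after methotrexate and from 20.3% to 39.7% for the interaction. The highest share was that with array weights each time. These shares leave aside the 2-fold minimum and the filter on dim genes. The count for methotrexate in WT mice, 1, was 0 under quantile normalisation, median centring, a 2-fold minimum, the compared groups alone or a trended robust variance. It was 4 with array weights (3 higher, 1 lower, when 9.67% of all genes were called) and 4 in the arrays with high acinar signal (1 higher, 3 lower, against 4.44%), and 0 to 1 when single arrays were left out. KO against WT mice untreated gave 2 lower genes with array weights (2.96% of all genes called) and 2 in the arrays with high acinar signal (0.414%), and 0 to 0 when single arrays were left out. The cause was not tested.

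With the replicate number as a block, methotrexate in WT mice gave 0 genes, Gstp3 having an adjusted p of 0.0767 (limma). KO against WT mice after methotrexate gave 30, Gsta4 and Ephx1 being added (0.0362 and 0.0442), when 37.1% of all genes were called. The block changed no other call of the 30 genes in the other 3 comparisons.

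Calls lost in some settings for methotrexate in KO mice were those of Gstp1 and Gstp3, without the single arrays named above. That of Gstp1 was also lost under quantile normalisation (limma adjusted p = 0.0819) and with the compared groups alone (0.102). In the arrays without high acinar signal, Gstp1 and Gstp3 changed by -0.09 and -0.36 with methotrexate in KO mice. The interaction there was -2.16 for Cyp2c29 and -0.41 for Gstp1. Gsta4 and Ephx1, not called for methotrexate in KO mice, changed by 0.40 and 0.39 in the arrays without high acinar signal, and by -1.51 and -1.26 in those with it, where they were called. The fit without high acinar signal has 1 array in 3 of the 4 groups and 1 residual degree of freedom. Its p-values would assume that single arrays vary like the 2 from WT mice given methotrexate, so only its changes are given. The 3 mice per group limit the precision, and arrays give no depth. The deposited values carry no detection calls, so a low signal has no stated floor.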

Other observations

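Genes that answer to oxidative stress were called in both directions, when 18.8% of all genes were called higher and 16% lower. Of 18 measured NRF2 target genes, 5 were higher and 6 lower in KO mice given methotrexate than in untreated KO mice, with a median change of -0.21 on the log2 scale. Hmox1, which encodes the inducible haem oxygenase, read 8.25, 8.65 and 9.75 in KO mice given methotrexate, against 4.92, 6.28 and 6.46 in untreated KO mice, a change of 2.99 ± 0.45 (limma adjusted p = 0.000292). Slc7a11, the cystine carrier that feeds glutathione synthesis, read 7.51, 7.19 and 7.78, against 3.67, 5.03 and 5.18 in untreated KO mice, a change of 2.86 ± 0.34. Abcc1, an exporter of glutathione conjugates, changed by 1.71 ± 0.20, while Taldo1 (-0.72 ± 0.11), Osgin1 (-1.34 ± 0.24) and Gclm (-0.71 ± 0.15), a subunit of the enzyme that starts glutathione synthesis, fell.

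Among 17 genes of glutathione synthesis and recycling, 5 were higher and 6 lower (median -0.11), when 18.8% of all genes were called higher and 16% lower. Slc7a11 belongs to this list too. The glutathione peroxidases split. Gpx3, the secreted form, read 11.03, 11.16 and 11.18 in KO mice given methotrexate, against 8.97, 9.03 and 8.99 in untreated KO mice, and Gpx2, the gastrointestinal form, read 11.13, 10.75 and 10.52, against 9.36, 8.58 and 8.44. Gpx4, which protects membrane lipids, fell by 1.04 ± 0.10. Of 10 genes of haem metabolism, which supplies the cytochromes, 6 were lower and 1, Hmox1, was higher, against the same shares of all genes. Among the lower ones were Uros (-1.02 ± 0.14), Urod (-0.66 ± 0.15) and Ppox (-0.49 ± 0.10). None of the genes of these 3 lists was called for methotrexate in WT mice by limma.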
